A study of Mus musculus with 20 samples.

Results

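Knee joints injected with mesenchymal stromal cells (MSC) that had been activated through TLR3 were compared with joints that received a needle alone. The comparison used 10 of the 20 joints sequenced, 5 labelled TLR and 5 labelled CTRL, and covered all 14793 genes of the deposited table. All mice, controls included, were male C57BL/6Nci mice 12 weeks old at the start that had undergone destabilization of the medial meniscus (DMM), an operation that loosens the meniscus and leads to osteoarthritis. The TLR3-MSC joints were injected at weeks 3 and 5 after surgery with adipose-derived MSC treated with polyinosinic:polycytidylic acid (poly(I:C)), and the control joints (CTRL) had the needle insertion alone at the same weeks. The other 10 joints received untreated MSC or MSC activated through STING. All injected cells came from 1 donor pool, no joint received the carrier fluid without cells, and the TLR3-MSC joints therefore differed from the controls in the fluid, the cells and the activation together. The sources used here give both the end of the trial and the day after an injection as the time of collection, so the interval from the last injection to collection is uncertain.

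TLR3 is an endosomal receptor for double-stranded RNA, and poly(I:C) is its synthetic ligand. Engagement of TLR3 signals through the adaptor TICAM1 to the interferon regulatory factors and to NF-kB, and cells respond with type I interferon, chemokines and interferon-stimulated genes. MSC given into a joint are known for secreting factors that act on resident synovial, immune and cartilage cells, and the RNA measured here came from minced whole joint tissue, in which host cells and any remaining injected cells were sequenced together.

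Reads on the genes of the deposited table, as recovered from the normalized values, numbered 28979778 to 52529972 in the control joints. In the TLR3-MSC joints they numbered 28385967 to 45339873, so counting error limited mainly the genes with few reads. The first principal component of the 20 joints held 33.6% of the variance, and the TLR3-MSC and control joints interleaved along it. Genes of the labelled tissue were abundant, with Prg4, the lubricin of synovium and superficial cartilage, at 150984 to 542072 normalized counts in the 10 joints and Col2a1, the fibrillar collagen of cartilage, at 3004 to 81465. The tissue also held marrow, fat, muscle and skin, whose marker genes varied between joints and are given beside the results they moved with. In such bulk tissue, fewer cells of a type and less RNA per cell cannot be told apart. The 5 joints of a group came from 5 mice.

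In limma, no gene differed between TLR3-MSC and control joints at a false discovery rate (FDR) of at most 0.05 over all joints. The count at that FDR was 0 of 14793 genes (0%), with a smallest FDR of 0.293 shared by Il36g, Abhd5 and Sik2, while 530 genes (3.58%) reached an unadjusted p of 0.05 or less. If no gene differed, a share of about 0.05 would reach that p, so the 530 genes were fewer than chance alone gives. DESeq2 on the recovered reads gave 3 genes at that FDR, the same Il36g, Abhd5 and Sik2, and edgeR gave 0, with 629 and 563 genes at the unadjusted p. Without control replicate 1, limma gave 1 gene, Il36g. The 530 genes were 396 higher (2.68%) and 134 lower (0.906%) in TLR3-MSC joints. Past the threshold, which asks for an unadjusted p of 0.05 or less together with a 2-fold change, 34 genes were higher (0.23%) and 15 were lower (0.101%). In 85 genes (0.575%) every TLR3-MSC joint was above every control joint, and in 37 genes (0.25%) every one was below. Where a gene does not differ, groups of 5 joints fail to overlap in one direction or the other with a probability of 0.00794. Over all genes the median log2 fold change was -0.01 and 47.9% of the genes were higher, so the excess of higher genes lay among those at the unadjusted p. Below, a gene is said to have risen or fallen where its unadjusted limma p was at most 0.05, a call that did not reach the FDR in limma over all joints. Counts of list members are to be read against the 2.68% of all genes that rose and the 0.906% that fell. The lists were chosen with earlier results of these data known, so these counts are descriptions and not tests.

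**Figure D1:**
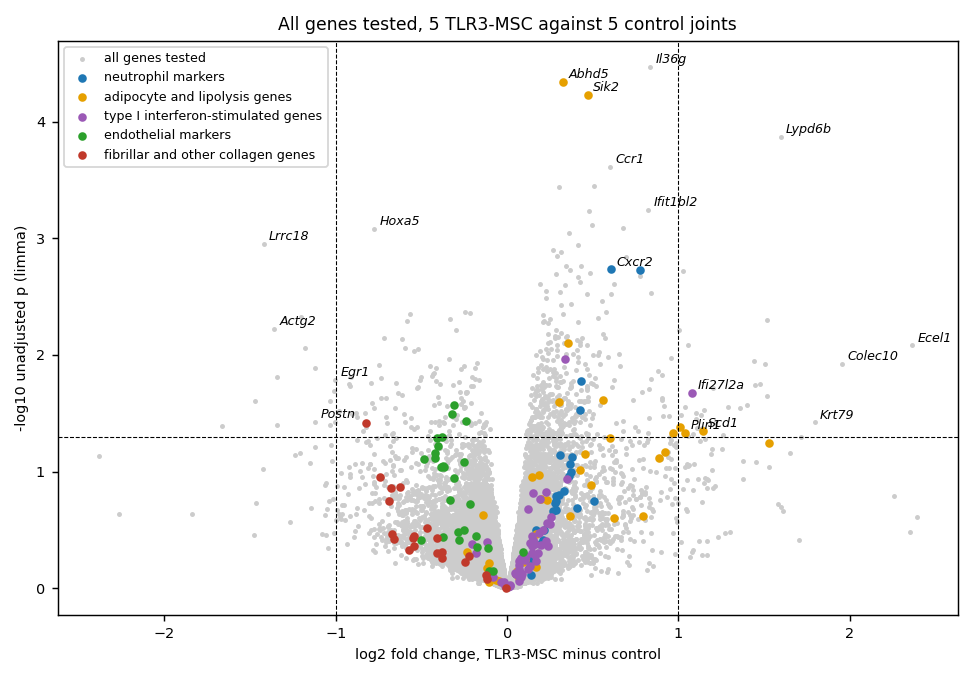
Log2 fold change of TLR3-MSC over control joints (horizontal axis) against the -log10 of the unadjusted limma p (vertical axis) for 14793 genes, with 5 gene lists in colour; dashed lines mark an unadjusted p of 0.05 and a 2-fold change. Il36g, Abhd5 and Sik2 lie highest, at log2 fold changes of 0.84, 0.33 and 0.47, and the largest change among the labelled genes is Ecel1 at 2.37.

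Il36g had the smallest p of all genes. It encodes IL-36 gamma, an IL-1 family cytokine that barrier and myeloid cells release to activate NF-kB in their neighbours, and it lies on chromosome 2 at 24076488 to 24083581 (GRCm39, positions as deposited). The control joints had 731, 521, 444, 422 and 516 normalized counts of Il36g, and the TLR3-MSC joints had 1066, 803, 823, 1146 and 831. Every TLR3-MSC joint was above every control joint, and the highest control was replicate 1. The group means were 527 ± 122 and 934 ± 160 (SD, n = 5 each), a log2 fold change of 0.84 ± 0.15 (SE; limma unadjusted p = 3.4e-05, FDR = 0.293). The exact two-sided permutation test over the 10 joints gave p = 0.00794, the smallest that 5 joints against 5 allow. Il36g, like other genes named below for a small p, was picked on these same joints. For such genes the permutation p and the lack of overlap are not separate support. Of the 23 measured IL-1 and IL-36 family genes, 6 rose and 0 fell, against 2.68% and 0.906% of all genes, with a median log2 fold change of 0.12. Il36g is a member, and the list was chosen with earlier results of these data known, so its counts were not a test. Il1r2, the decoy receptor that binds IL-1 without signalling, rose by a log2 fold change of 0.78 ± 0.22 (limma p = 0.00189; exact permutation p = 0.0159), from 385 ± 123 to 645 ± 109 normalized counts (SD, n = 5), and 4 of 5 TLR3-MSC joints were above every control. Nlrp3, the inflammasome sensor, rose by 0.40 ± 0.17, and Il1rap, the shared co-receptor of IL-1 and IL-36, rose by 0.24 ± 0.10. The receptor kinase Irak4 and its inhibitor Irak3 rose by 0.22 and 0.21, each with every TLR3-MSC joint above every control. Irak4 overlaps Pus7l and Twf1, and Irak3 overlaps Tmbim4, on the opposite strand, which matters if the counting did not use strand. The count of 6 became 3 without control replicate 4, and 2 without control replicate 5 or without TLR3-MSC replicate 4.

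The chemokine receptors Ccr1, Cxcr1 and Cxcr2 rose in TLR3-MSC joints, and Ccr2 (0.29 ± 0.18) and Cx3cr1 (0.10 ± 0.23), both of monocytes, did not pass. Ccr1, the receptor for CCL3 and CCL5 on monocytes and neutrophils, had 2094, 1479, 1456, 1382 and 1365 normalized counts in the control joints and 2495, 1785, 2350, 2723 and 2377 in the TLR3-MSC joints. Only control replicate 1 overlapped the TLR3-MSC joints, being above replicate 2 of that group. The log2 fold change of Ccr1 was 0.60 ± 0.13 (SE; limma p = 0.000244, FDR = 0.721; exact permutation p = 0.0159). Cxcr2, the neutrophil receptor for CXCL1 and CXCL2, had 3683, 2796, 2293, 1982 and 2612 normalized counts in the controls against 4097, 3405, 3964, 5053 and 3546. Control replicate 1 was again the only control inside the TLR3-MSC range, and Cxcr2 rose by 0.60 ± 0.17 (limma p = 0.00184, FDR = 1.00; exact permutation p = 0.0238). Of 45 measured chemokine and chemokine receptor genes, 6 rose and 0 fell, against 2.68% and 0.906% of all genes, with a median of 0.09. The other risers were the receptor Cxcr1 and the ligands Ccl9, Ccl24 and Cxcl13, the last pair at log2 fold changes of 1.40 ± 0.58 and 1.20 ± 0.47. Ccl2, the monocyte chemoattractant, was at 15.7 to 103 normalized counts in the controls and 52.8 to 76.9 in the TLR3-MSC joints, a log2 fold change of 0.93 ± 0.64 that did not pass (limma p = 0.164; exact permutation p = 0.127). Cxcl10, an interferon-induced chemokine, was at 52.4 to 116 and 46.9 to 162 and did not pass (0.12 ± 0.56, limma p = 0.831; exact permutation p = 0.738).

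All 26 measured neutrophil markers had a higher mean in TLR3-MSC joints, and 4 of them rose, against 2.68% of all genes. Their median log2 fold change was 0.30, the range was 0.12 to 0.78, and the 4 that rose were Cxcr2, Il1r2, the G-CSF receptor Csf3r (0.43 ± 0.16) and the collagenase Mmp8 (0.43 ± 0.18). Each of these 4 is also counted as a riser in another list. Il1r2 is in the IL-1 list, Cxcr2 in the chemokine list, Csf3r among the other cytokine genes and Mmp8 among the matrix proteases. The counts of those lists are therefore not separate from this one. The granule and alarmin genes were smaller in change and did not pass, among them S100a8 at 0.37 ± 0.20 and Elane, the primary-granule elastase, at 0.14 ± 0.23. The mean log2 value over the 26 markers was 12.93, 12.68, 12.52, 11.99 and 12.38 in control replicates 1 to 5 and 12.88, 12.62, 12.64, 13.19 and 12.78 in TLR3-MSC replicates 1 to 5. The groups overlapped, with control replicate 1 above all TLR3-MSC joints but replicate 4. The markers summed to 496394 to 874656 normalized counts in the controls and 664214 to 1005645 in the TLR3-MSC joints, and 0 of them were at 0 in any joint. The part of these markers in the rise of Ccr1, Il1r2 and Cxcr2 was not tested. Without control replicate 1 the number of markers that rose was 9, and without control replicate 4 or TLR3-MSC replicate 4 it was 2. Of 25 macrophage and monocyte markers, 0 passed in limma in either direction (median 0.10), and Lyz2 had the smallest p (0.29 ± 0.17).

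Among the other cytokine genes, 4 of 35 measured members rose and 1 fell, against 2.68% and 0.906% of all genes. Il6ra, the IL-6 receptor chain, had 2709, 2018, 1965, 1891 and 1926 normalized counts in the controls and 3113, 2689, 2956, 3329 and 2464 in the TLR3-MSC joints. Control replicate 1 stood within the TLR3-MSC range and the other 4 controls lay below it, and the log2 fold change was 0.48 ± 0.12 (SE; limma p = 0.000584, FDR = 0.96; exact permutation p = 0.0238). The others that rose were Csf2rb, Csf3r and Il17ra, at 0.32 to 0.43, and the one that fell was Tnfsf10, the death ligand TRAIL, by 0.40 on the log2 scale. The count of 4 was 8 without control replicate 1, 2 without control replicate 3, without TLR3-MSC replicate 1 or under quantile normalization, and 1 without control replicate 4 or TLR3-MSC replicate 4. Il6 itself was low, at 7.25 to 27.5 normalized counts in the controls and 11.3 to 25.9 in the TLR3-MSC joints, and did not pass (0.51 ± 0.37, limma p = 0.186; exact permutation p = 0.238). Cd300ld, a myeloid receptor, was at 576 to 757 in the controls and 780 to 1124 in the TLR3-MSC joints without overlap, and rose by 0.49 ± 0.12 (limma p = 0.00077; exact permutation p = 0.00794).

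**Figure D2:**
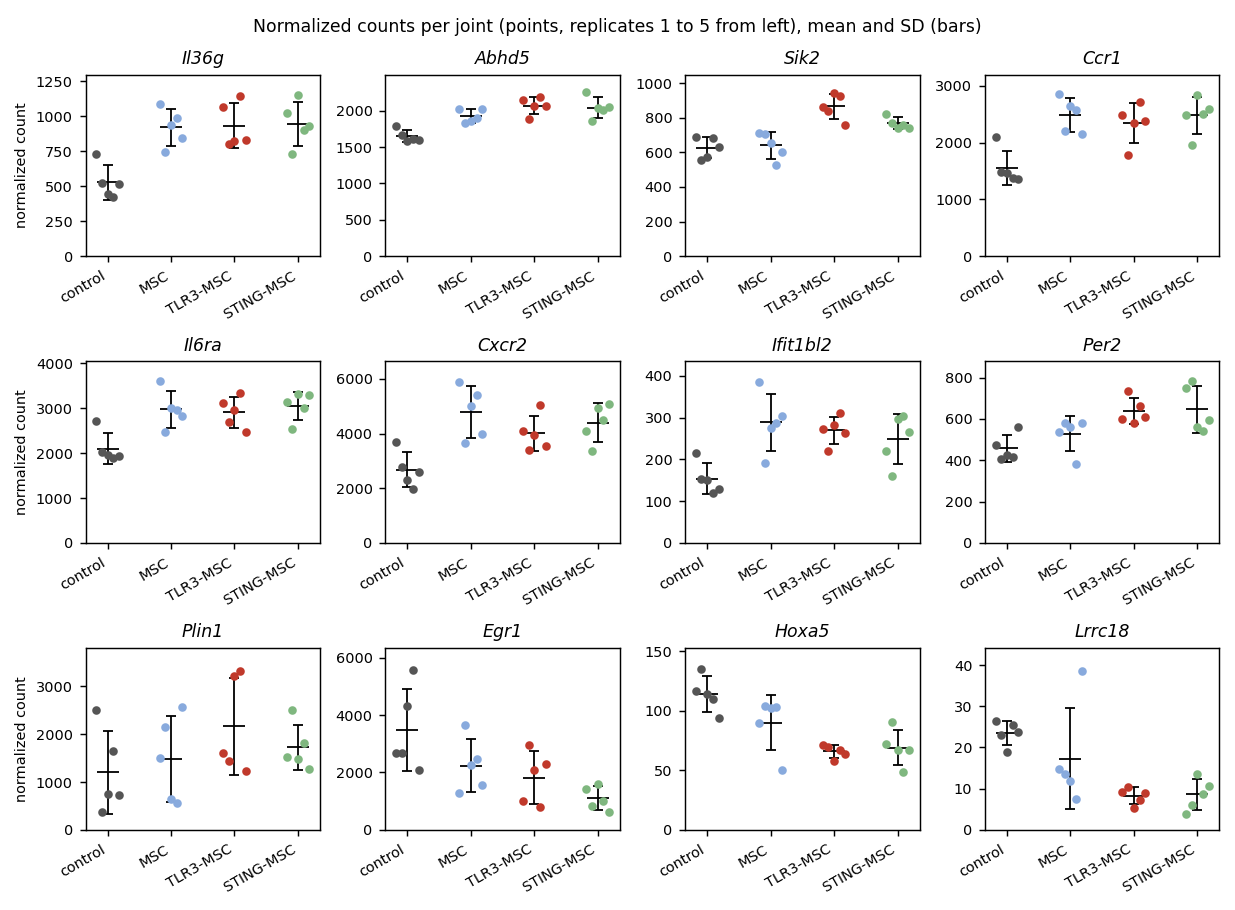
Normalized counts (vertical axes, from 0) of 12 genes in each of the 20 joints, with points for replicates 1 to 5 from left to right and bars for the group mean and SD. Il36g, Abhd5 and Sik2 are higher in every TLR3-MSC joint than in every control joint, and Hoxa5 and Lrrc18 are lower in every one. Control replicate 1 is the highest control for Il36g, Abhd5, Sik2, Ccr1, Il6ra, Cxcr2, Ifit1bl2, Plin1 and Lrrc18.

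Several genes of fat storage and breakdown rose. Of 37 measured adipocyte and lipolysis genes, 9 rose and 0 fell, against 2.68% and 0.906% of all genes, with a median log2 fold change of 0.30. This list holds Abhd5 and Sik2 and was chosen with earlier results of these data known, so its counts were not a test. Abhd5, the co-activator of adipose triglyceride lipase, had 1791, 1665, 1581, 1617 and 1602 normalized counts in the controls and 2151, 1882, 2065, 2190 and 2060 in the TLR3-MSC joints. The groups did not overlap and the change was small but tight, 0.33 ± 0.06 (SE; limma p = 4.6e-05, FDR = 0.293; exact permutation p = 0.00794). Sik2, a salt-inducible kinase that is abundant in fat and restrains CREB-dependent transcription, had 687, 557, 573, 685 and 631 in the controls and 863, 840, 942, 928 and 761 in the TLR3-MSC joints. These groups did not overlap either (0.47 ± 0.09, limma p = 5.9e-05, FDR = 0.293; exact permutation p = 0.00794), and Sik2 overlaps Ppp2r1b on the opposite strand, which matters if the counting did not use strand. Plin1, the coat protein of lipid droplets, was at 2515, 368, 751, 1649 and 731 in the controls and 1614, 1449, 3209, 3332 and 1240 in the TLR3-MSC joints. Control replicates 1 and 4 lay inside the TLR3-MSC range, and Plin1 rose by 1.04 ± 0.49 (limma p = 0.0466) while the exact permutation p was 0.127. Scd1, which desaturates fatty acids, rose by 1.14 ± 0.53, and Cfd, the adipocyte serine protease adipsin, by 1.01 ± 0.46. The lipid-synthesis enzymes Dgat2 and Agpat2, the adipogenic factor Cebpa and the receptor Acvr1c were the other risers, at 0.30 to 0.97.

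The level of the adipocyte list varied between the joints of each group. Its mean log2 value was 10.95, 9.91, 10.06, 10.65 and 10.41 in control replicates 1 to 5 and 10.60, 10.56, 11.21, 11.06 and 10.42 in TLR3-MSC replicates 1 to 5. Control replicate 1 was above all TLR3-MSC joints but replicates 3 and 4. The members summed to 109889 to 188051 normalized counts in the controls and 136406 to 245307 in the TLR3-MSC joints, with 0 members at 0, and the part of fat tissue in the rise of Abhd5 and Sik2 was not tested. The count of 9 was 16 without control replicate 1, 3 without control replicate 2 or TLR3-MSC replicate 4, 4 without control replicate 3 or TLR3-MSC replicate 3, and 5 in edgeR. Abhd5 and Sik2 kept an unadjusted p of at most 0.05 under each of the 20 alternatives.

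Interferon-stimulated genes, the textbook readout of TLR3, moved little. Of 51 measured type I interferon-stimulated genes, 44 had a higher mean in TLR3-MSC joints, 2 rose and 0 fell, against 2.68% and 0.906% of all genes, and the median log2 fold change was 0.12. Without TLR3-MSC replicate 1, which had the highest mean over these genes, 29 of the 51 were higher and the median was 0.03. The gene that rose with the smaller p was Samd9l, an antiviral and growth-restraining factor, at 2961, 2562, 2419, 2349 and 2255 normalized counts in the controls and 3855, 2890, 2949, 3434 and 2753 in the TLR3-MSC joints. Control replicate 1 overlapped 3 TLR3-MSC joints, and the log2 fold change was 0.34 ± 0.12 (limma p = 0.0109; exact permutation p = 0.0317). The other riser was Ifi27l2a, at 1.08 ± 0.43 (limma p = 0.0212; exact permutation p = 0.0714), with control replicate 1 at 6639 and TLR3-MSC replicate 3 at 11762 normalized counts. Isg15, a ubiquitin-like modifier, had 1375, 1557, 1019, 1413 and 2227 in the controls against 2937, 1018, 1676, 1922 and 1619, and did not pass (0.24 ± 0.29, limma p = 0.429; exact permutation p = 0.444). Ifit1, which binds viral RNA, was at 200 to 399 and 256 to 547 and did not pass (0.18 ± 0.26, limma p = 0.495; exact permutation p = 0.492). In both genes the high joint was TLR3-MSC replicate 1 and the groups otherwise overlapped.

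Ifit1bl2, an Ifit1-like gene on chromosome 19 at 34594449 to 34618144, was outside that list and differed more. It had 216, 153, 151, 121 and 129 normalized counts in the controls and 271, 219, 283, 310 and 263 in the TLR3-MSC joints. The groups did not overlap, and the log2 fold change was 0.82 ± 0.20 (SE; limma p = 0.000568, FDR = 0.96; exact permutation p = 0.00794). In the GENCODE annotation its locus overlaps that of Ifit1 on the opposite strand and the Ifit family holds similar copies, so its count is uncertain. Of 36 measured interferon-gamma-induced GTPase and MHC genes, 30 had a lower mean, with a median of -0.15. In this list 2 fell and 0 rose, against 0.906% and 2.68% of all genes. The members that fell were the guanylate-binding gene Gbp9 (-0.34 ± 0.16, limma p = 0.0481; exact permutation p = 0.0397), whose call was lost under 10 of the 20 alternatives, and the immunity-related GTPase Tgtp1 (-0.71 ± 0.34, limma p = 0.0488; exact permutation p = 0.111); both lie among similar copies. The count of 2 was 0 without control replicate 2, 3 or 5, TLR3-MSC replicate 3 or 4 or MSC replicate 5, and under quantile normalization. Of 29 measured genes of TLR3, RNA-sensor and STING signalling, 0 passed in limma in either direction. Tlr3 was at 160, 166, 295, 287 and 202 normalized counts in the controls and 188, 211, 153, 135 and 211 in the TLR3-MSC joints, with overlapping groups (-0.28 ± 0.24, limma p = 0.266; exact permutation p = 0.254). The adaptor Ticam1 was at 0.03 ± 0.12, the kinase Tbk1 at 0.05 ± 0.07, Irf3 at 0.09 ± 0.07 and Irf7 at 0.21 ± 0.20.

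Promoter sequence was examined for 9 genes of this comparison. The core letters of the interferon response element, AAANNGAAA, were in the 250 bases before the start of Ccr1, Samd9l and Ifit1bl2, and not in those of the other 6, which were Il36g, Abhd5, Sik2, Cxcr2, Il6ra and Il1r2. The 3 promoters with a match are shown for their letters, and that of Il36g, the gene with the smallest p, stands for the 6 without. The sequences come from RefSeq (GRCm38.p6), and those shown matched GRCm39 at 1 place each, on the plus strand for Il36g (chr2:24076238-24076487) and on the minus strand for Ccr1 (chr9:123768730-123768979), Samd9l (chr6:3399572-3399821) and Ifit1bl2 (chr19:34618144-34618393). They are written 5′ to 3′ on the strand of the gene, with AAANNGAAA on either strand in capitals.
Ccr1: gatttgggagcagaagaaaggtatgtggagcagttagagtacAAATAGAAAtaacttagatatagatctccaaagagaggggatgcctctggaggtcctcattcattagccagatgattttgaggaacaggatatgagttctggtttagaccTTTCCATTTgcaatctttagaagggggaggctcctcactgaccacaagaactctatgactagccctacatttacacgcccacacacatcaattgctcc
Ifit1bl2: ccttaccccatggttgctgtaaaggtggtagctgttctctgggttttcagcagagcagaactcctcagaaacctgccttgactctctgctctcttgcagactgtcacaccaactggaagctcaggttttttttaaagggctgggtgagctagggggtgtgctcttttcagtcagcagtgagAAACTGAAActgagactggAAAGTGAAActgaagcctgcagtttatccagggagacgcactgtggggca
Samd9l: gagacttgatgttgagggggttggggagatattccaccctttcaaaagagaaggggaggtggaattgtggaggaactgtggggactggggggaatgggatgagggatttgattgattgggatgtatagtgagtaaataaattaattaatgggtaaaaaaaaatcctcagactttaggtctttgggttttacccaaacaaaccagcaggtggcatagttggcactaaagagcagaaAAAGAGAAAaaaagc
Il36g: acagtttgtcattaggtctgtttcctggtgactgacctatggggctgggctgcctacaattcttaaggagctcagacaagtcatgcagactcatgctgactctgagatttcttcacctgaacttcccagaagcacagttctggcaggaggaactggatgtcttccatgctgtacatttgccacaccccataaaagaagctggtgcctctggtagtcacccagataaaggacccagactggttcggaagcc

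Ccr1 and Ifit1bl2 each held 2 matches and Samd9l held 1. Over promoters of 300 bases (250 before and 50 after the start, both strands), the letters were found in 8.10% of 11686 matched genes, in 10.9% of the 320 higher genes, in 9.01% of the 111 lower genes and in 69.2% of 39 promoters of the type I interferon list. The E-box of the circadian clock, CACGTG, was in 9.65% of all, 8.13% of the higher and 8.11% of the lower genes. A kappaB sequence, GGANTTTCC, was in 1.33% of all, 0.313% of the higher and 1.80% of the lower genes. The shares among higher and lower genes are descriptions, as no test was made of them, and a match says nothing of binding.

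Immediate-early genes did not move together. Of 44 measured NF-kB and immediate-early genes, 3 rose and 3 fell, against 2.68% and 0.906% of all genes, with a median of -0.01. These counts depended on single joints, with 0 risers and 5 fallers without control replicate 5, 4 and 0 without control replicate 4, 4 and 1 without TLR3-MSC replicate 1, 1 and 4 without TLR3-MSC replicate 5 and 2 and 1 without TLR3-MSC replicate 4. They also changed to 2 and 2 without control replicate 1 or 2, 3 and 2 without control replicate 3, and 4 and 5 in the 10 joints alone. Egr1, a transcription factor induced within minutes of many stimuli, had 2692, 2695, 4315, 5559 and 2082 normalized counts in the controls and 997, 2965, 2091, 788 and 2282 in the TLR3-MSC joints. It fell by 1.00 on the log2 scale with an SE of 0.38 (limma p = 0.0163), the groups overlapped, and the exact permutation p was 0.0794. Its call was lost without control replicate 4 or TLR3-MSC replicate 1 or 4. Fos, its partner in the early response, fell by 0.88 ± 0.38, and the kinase Sik1 fell by 0.43 ± 0.18 with every TLR3-MSC joint below every control. The nuclear receptor Nr4a3 rose by 1.04 ± 0.49, Cebpd, a factor of acute-phase and fat cell genes, by 0.31 ± 0.13, and Klf6 by 0.26 ± 0.10. Among 21 measured circadian clock genes, the repressors Per2 and Cry1 rose and 0 fell, against 2.68% and 0.906% of all genes. Per2 had 475, 407, 427, 417 and 562 normalized counts in the controls and 599, 737, 582, 662 and 609 in the TLR3-MSC joints. The groups did not overlap, and the log2 fold change was 0.48 ± 0.13 (SE; limma p = 0.002; exact permutation p = 0.00794).

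Collagen genes were lower on average, with few that passed, and synovial lining and fibroblast genes were not. All 21 measured fibrillar and other collagen genes had a lower mean in TLR3-MSC joints, with a median log2 fold change of -0.54. Of them 1 fell and 0 rose, against 0.906% and 2.68% of all genes. The median was -0.23 without control replicate 4, -0.32 without control replicate 3 and -0.27 without TLR3-MSC replicate 4, and at least 17 of the 21 were lower under each alternative. The one that fell was Col24a1, a minor fibrillar collagen of bone (-0.82 ± 0.37, limma p = 0.0385; exact permutation p = 0.127), and its call was lost without control replicate 3 or 4 or TLR3-MSC replicate 3 or 4, and in the fit to the 10 joints alone. Col1a1, the main collagen of bone and synovium, was at -0.68 ± 0.44 and did not pass. The collagen list summed to 392951 to 1620714 normalized counts in the controls and 244178 to 1077009 in the TLR3-MSC joints, so the groups overlapped over most of their range. Postn, the matricellular protein periostin of fibrous repair tissue, had 3471, 8674, 20388, 24052 and 7341 normalized counts in the controls and 4278, 7384, 7612, 1591 and 5783 in the TLR3-MSC joints. It fell by 1.12 on the log2 scale with an SE of 0.50 (limma p = 0.0373; exact permutation p = 0.151), control replicates 3 and 4 stood far above the rest, and the call was lost without either of them. It was also lost in the fit to the 10 joints alone and without TLR3-MSC replicate 1 or 4. Of 31 measured synovial lining and fibroblast genes, 18 had a higher mean and 13 a lower one, with a median log2 fold change of 0.08. In this list Clic5 and Pi16 rose and Postn fell, against 2.68% and 0.906% of all genes. Of its members, 0 rose without control replicate 2, 3 or 5 or TLR3-MSC replicate 3 or 4.

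Genes of cartilage and of its breakdown did not separate the groups. Of 30 measured cartilage genes, 0 passed in limma, with a median of -0.28 that became 0.02 without TLR3-MSC replicate 3. Col2a1 had 7118, 28001, 72287, 81465 and 17291 normalized counts in the controls and 57173, 27242, 3004, 8546 and 80310 in the TLR3-MSC joints. Both groups spanned more than 10-fold, and the log2 fold change was -0.53 ± 0.90 (limma p = 0.562; exact permutation p = 0.643). Aggrecan (Acan), the main cartilage proteoglycan, was at -0.58 ± 0.62 (limma p = 0.364; exact permutation p = 0.468) and Prg4 at 0.08 ± 0.67 (limma p = 0.907; exact permutation p = 0.841). Of the 36 measured matrix proteases and inhibitors, Mmp8 and Mmp25, both neutrophil enzymes, rose and Adamts20 fell by 0.91 ± 0.34, against 2.68% and 0.906% of all genes. Without control replicate 4 or TLR3-MSC replicate 4, 0 of them rose. The osteoarthritis enzymes did not pass, with Mmp13 at -0.24 ± 0.35, Mmp3 at -0.41 ± 0.75 and Adamts5, the aggrecanase, at 0.14 ± 0.23. Ptgs2, which makes prostaglandins, and Tnfaip6, an anti-inflammatory product of MSC, did not pass and varied widely, with TLR3-MSC replicate 5 at 241 and 3712 normalized counts against 18.6 to 45.3 and 92.2 to 1115 in the other 4.

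Endothelial markers were lower in 26 of 27 cases, and 3 of the 27 fell, against 0.906% of all genes. These were the VEGF receptor Kdr (-0.32 ± 0.14), the junction protein Esam (-0.24 ± 0.11) and Robo4, a guidance receptor that stabilizes vessels (-0.31 ± 0.13), and the median of the list was -0.31. Robo4 lost its call without control replicate 4 or 5 or TLR3-MSC replicate 3 or 4. The list summed to 35023 to 51978 normalized counts in the controls and 30231 to 44126 in the TLR3-MSC joints, with 0 members at 0. The count depended on single joints: it was 14 without control replicate 1, 13 without TLR3-MSC replicate 5, 6 without TLR3-MSC replicate 2, 1 without control replicate 5, and 0 without control replicate 4, TLR3-MSC replicate 3 or TLR3-MSC replicate 4. At least 25 of the 27 stayed lower under each alternative, but the alternatives share most of their joints and are not separate support. The list mean ran from 9.655 to 10.42 in the controls and 9.47 to 10.17 in the TLR3-MSC joints, so the groups overlapped.

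**Figure D3:**
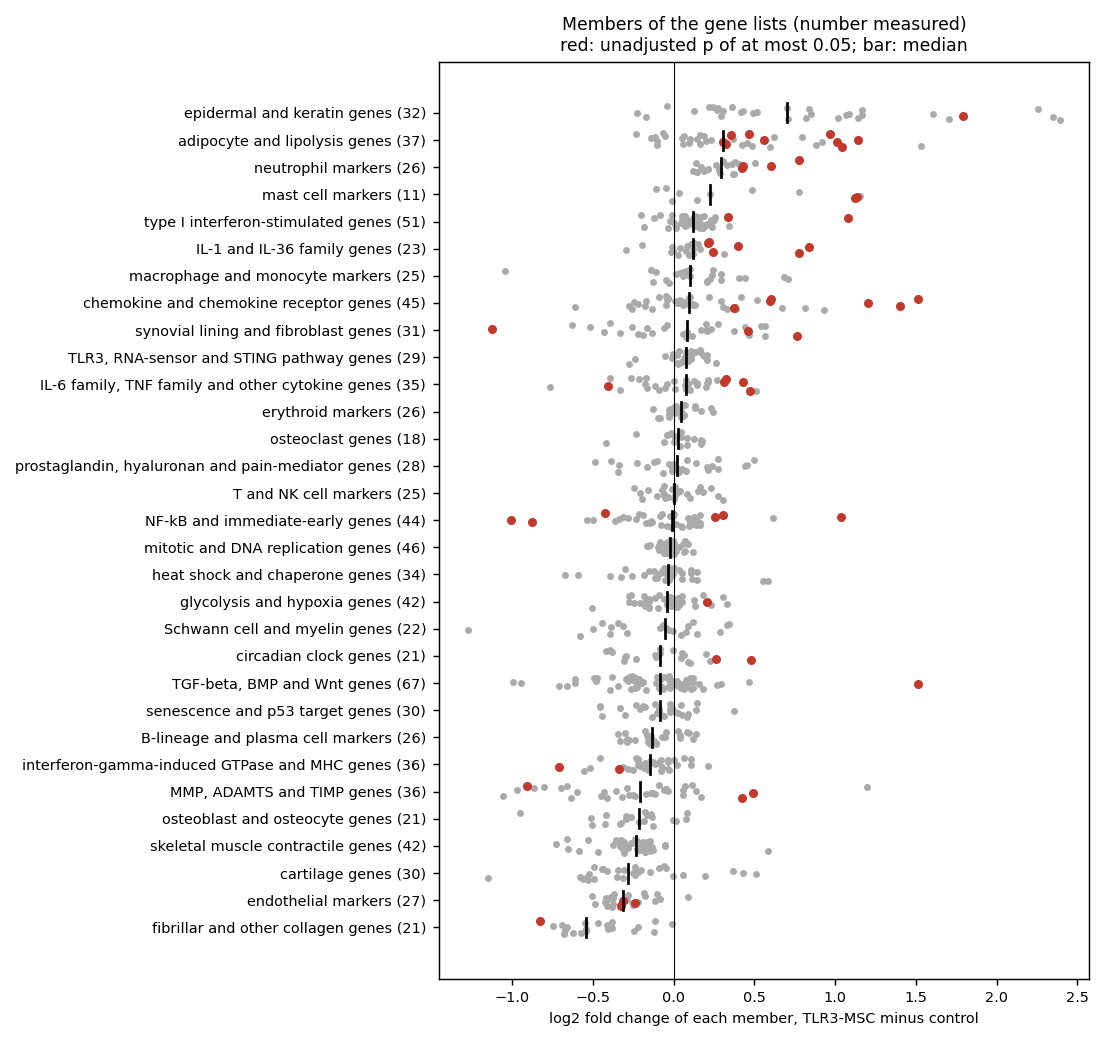
Log2 fold change of TLR3-MSC over control joints (horizontal axis) for each member of 31 gene lists (vertical axis, number measured in parentheses), with members at an unadjusted limma p of at most 0.05 in red and the list median as a bar. The adipocyte list has 9 red members and the IL-1 and chemokine lists 6 each, all to the right of 0, while the collagen list lies wholly to the left with a single red member.

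The genes with the smallest p among those that fell were varied in function. Hoxa5, a homeobox gene of positional identity, had 116, 135, 114, 110 and 93.9 normalized counts in the controls and 70.8, 69.5, 57.6, 67.3 and 63.3 in the TLR3-MSC joints. The groups were well apart, with a log2 fold change of -0.78 ± 0.20 (SE; limma p = 0.00083, FDR = 1.00; exact permutation p = 0.00794), and Hoxa5 overlaps transcripts of Hoxa3 on the same strand. Lrrc18, a leucine-rich repeat gene inside Wdfy4 on the opposite strand, was at 18.9 to 26.5 in the controls and 5.36 to 10.5 in the TLR3-MSC joints (-1.42 ± 0.37, limma p = 0.00112; exact permutation p = 0.00794). Ush1c, a scaffold protein of hair cells and gut brush border, was at 46.5 to 77.6 and 15.5 to 41.6 (-1.20 ± 0.38). Smaller falls without overlap were those of the translation factor Eif5b (-0.25 ± 0.08), the zinc transporter Slc39a5 (-0.57 ± 0.18) and Zbed3 (-0.34 ± 0.11). The factor Elk4 (-0.22 ± 0.07), the cholesterol-esterifying enzyme Lcat (-0.59 ± 0.19) and Swap70 (-0.30 ± 0.10) each had 4 of 5 TLR3-MSC joints below every control. Actg2, the smooth-muscle gamma actin, had 109, 159, 273, 370 and 92.5 in the controls and 43.0, 113, 57.6, 44.5 and 112 in the TLR3-MSC joints, overlapping, and fell by 1.36 ± 0.44. Among the genes that rose, the iron-sensing ubiquitin ligase subunit Fbxl5 (0.30 ± 0.07) and Zfp276 (0.51 ± 0.12) completed the 10 with the smallest p, and both overlap other genes on the opposite strand.

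Among the 49 genes past the 2-fold threshold, the highest values lay mostly in a few joints. Of the 34 that were higher, 2 had no overlap between the groups, Lypd6b and the cystine transporter Slc7a11, and of the 15 lower genes 4 had none, Edn3, Krt75, Lrrc18 and Ush1c. Lypd6b, which modulates nicotinic receptors, was at 5.29 to 13.6 normalized counts in the controls and 18.1 to 38.3 in the TLR3-MSC joints (1.60 ± 0.33, limma p = 0.000135; exact permutation p = 0.00794), and Slc7a11 was at 65.8 to 145 and 180 to 245 (1.02 ± 0.28). Among the 34 higher genes, control replicate 1 was the highest control in 20 and replicate 4 in 10, and the highest TLR3-MSC joint was replicate 3 in 21 and replicate 4 in 9. Control replicate 1 lay above the lowest TLR3-MSC joint in 29 of the 34. Of the 34, 9 stayed past the threshold without TLR3-MSC replicate 3, 12 without replicate 4, 11 without control replicate 2 and 32 without control replicate 1. The 5 largest changes upward were Ecel1 (2.37 ± 0.80), Colec10 (1.96 ± 0.70), Krt79, Lypd6b and Wnt2, and the 5 largest downward were BC048679, Edn3, Lrrc18, Actg2 and Krt75. Colec10 was low, at 1.21 to 5.44 normalized counts in the controls and 6.78 to 46.9 in 4 TLR3-MSC joints. TLR3-MSC replicate 2, at 1.62, lay inside the control range, and the exact permutation p of Colec10 was 0.0556. Ecel1, a neuronal endopeptidase, had 26.5, 2.42, 3.77, 4.57 and 0.68 normalized counts in the controls and 17.7, 7.28, 79.1, 67.3 and 17.0 in the TLR3-MSC joints, so that control replicate 1 was above 3 TLR3-MSC joints. Wnt2 (1.51 ± 0.61, exact permutation p = 0.103) lost its call without control replicate 2 or 3 or TLR3-MSC replicate 3, and in the 10 joints alone. BC048679 (-1.67 ± 0.76, exact permutation p = 0.111) lost it without control replicate 2, 4 or 5 or any TLR3-MSC joint but replicate 3, in both count tests and in the 10 joints alone. Edn3, the peptide endothelin 3 (-1.47 ± 0.60), lost it without control replicate 3 or 5 or TLR3-MSC replicate 1 or 5, and Krt75 (-1.35 ± 0.51) without TLR3-MSC replicate 5.

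**Figure D4:**
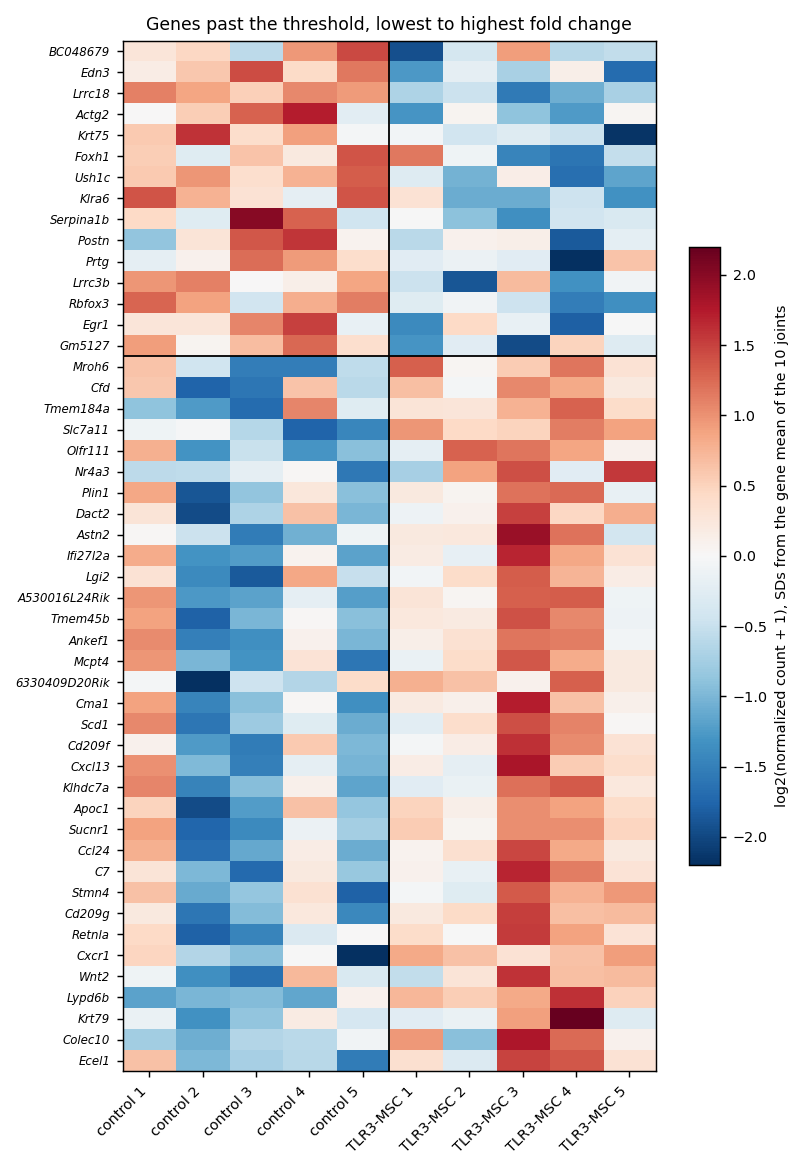
Each of the 49 genes past the threshold (rows, lowest to highest fold change) in the 10 joints (columns), coloured by log2(normalized count + 1) as SDs from the gene's mean over these joints. Among the 34 higher genes, control replicate 1 is often red like the TLR3-MSC joints, and replicates 3 and 4 of the TLR3-MSC group are the reddest.

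Markers of other tissues differed between the same joints. Of 32 measured epidermal and keratin genes, 29 had a higher mean in TLR3-MSC joints, against 47.9% of all genes, with a list median of 0.70. In this list 1 rose, Krt79, and 0 fell, against 2.68% and 0.906% of all genes. The mean log2 value of the list was 8.08, 4.07, 3.77, 5.66 and 3.33 in control replicates 1 to 5 and 3.94, 4.41, 6.54, 9.63 and 4.48 in TLR3-MSC replicates 1 to 5. Control replicate 1 and TLR3-MSC replicate 4 stood above the other 8 joints, the list summed to 2104 to 17469 normalized counts in the controls and 2491 to 49456 in the TLR3-MSC joints, and 14 of its members were at 0 in at least 1 of the 10 joints. Krt79 had 303 normalized counts in TLR3-MSC replicate 4 and 11.3 to 52.3 in the other 4, and without replicate 4 its log2 fold change was 0.99 and did not pass, and the median of the list was -0.14. Krt79 was also lost without control replicate 2 or 3 or TLR3-MSC replicate 3, and in the 10 joints alone. The part of skin in the genes past the threshold was not tested. Of 11 measured mast cell markers, 8 had a higher mean and 3 a lower one. In this list 2 rose and 0 fell, against 2.68% and 0.906% of all genes, with a list median of 0.23. The 2 were the chymases Cma1 (1.14 ± 0.52, limma p = 0.0424; exact permutation p = 0.0873) and Mcpt4 (1.12 ± 0.52, limma p = 0.0432; exact permutation p = 0.111). Tpsb2 (1.15 ± 0.56) did not pass, and Kit (-0.01 ± 0.22), Ms4a2 (0.04 ± 0.18) and Cpa3 (0.15 ± 0.18) differed little. The mast cell list mean was 8.49 in control replicate 1, 7.40 to 7.77 in the other controls and 7.91 to 8.52 in the TLR3-MSC joints, and 0 markers passed without control replicate 2, 3 or 5 or TLR3-MSC replicate 3 or 4, or in edgeR. Of 42 measured skeletal muscle genes 41 had a lower mean and 0 passed in limma (median -0.23, and -0.03 without TLR3-MSC replicate 1), with list means of 13.06 to 14.51 in the controls and 12.47 to 14.66 in the TLR3-MSC joints.

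**Figure D5:**
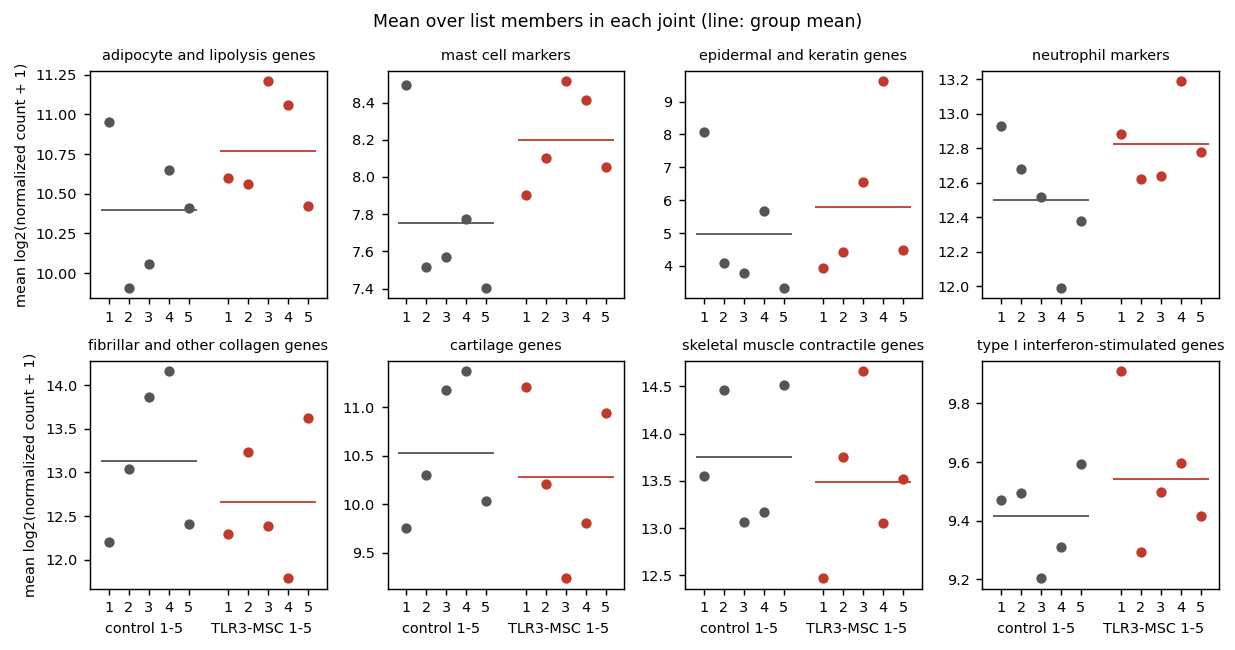
Mean log2(normalized count + 1) over the members of 8 gene lists (vertical axes, not from 0) in control replicates 1 to 5 and TLR3-MSC replicates 1 to 5 (horizontal axis), with lines for the group means. Control replicate 1 lies among or above the TLR3-MSC joints for the adipocyte, mast cell, epidermal and neutrophil lists, and TLR3-MSC replicate 4 is the highest joint for the epidermal list at 9.63.

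The remaining lists gave little. In the TGF-beta, BMP and Wnt list 1 of 67 measured genes rose (Wnt2), and in the glycolysis and hypoxia list 1 of 42 rose, the bifunctional enzyme Pfkfb4 (0.21 ± 0.08, limma p = 0.0179; exact permutation p = 0.0476), which was lost without control replicate 3 or TLR3-MSC replicate 3. In limma 0 members passed in either direction among 28 prostaglandin, hyaluronan and pain-mediator genes, 21 osteoblast and osteocyte genes, 18 osteoclast genes, 26 erythroid markers, 26 B-lineage and plasma cell markers, 25 T and NK cell markers, 22 Schwann cell and myelin genes, 46 mitotic and DNA replication genes, 34 heat shock and chaperone genes and 30 senescence and p53 target genes. Over all 32 lists, 41 of 960 measured genes rose and 12 fell, shares to be read against 2.68% and 0.906% of all genes.

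The joints given untreated MSC or STING-activated MSC were set beside the TLR3-MSC joints for the 52 genes named by rule, and 0 of them differed from either group at an FDR of at most 0.05 in limma. At an unadjusted p of at most 0.05, 7 of the 52 differed from the MSC joints (smallest FDR 0.615) and 2 from the STING-MSC joints (smallest FDR 0.89). Il36g was at 748 to 1086 normalized counts in the MSC joints and 729 to 1153 in the STING-MSC joints, both inside or near the range of 803 to 1146 in the TLR3-MSC joints, and the TLR3-MSC joints differed from MSC by 0.02 ± 0.15 and from STING-MSC by -0.02 ± 0.15 on the log2 scale. Ccr1 was at 2157 to 2854 and 1951 to 2843 in those groups, and the differences were -0.09 ± 0.13 and -0.08 ± 0.13. Abhd5 was at 1831 to 2025 in MSC joints and 1863 to 2255 in STING-MSC joints, with differences of 0.10 ± 0.06 and 0.02 ± 0.06. Sik2 was 1 of the 7 genes at the unadjusted p against MSC joints, but it was picked for its high values in these same TLR3-MSC joints. It was at 527 to 715 in the MSC joints, level with the controls, and the TLR3-MSC joints were higher by 0.44 ± 0.09 (limma FDR = 0.615). In STING-MSC joints Sik2 was at 739 to 825 (difference 0.17 ± 0.09, limma FDR = 0.89). Lcat was higher in MSC joints, at 58.0 to 93.5, and the difference, TLR3-MSC minus MSC, was -0.89 ± 0.19 (limma FDR = 0.615). All these contrasts share the same 5 TLR3-MSC joints, and any comparison with the controls shares the same 5 controls. All but the panel of 15 genes picked for their role were named for the difference between those 2 groups. For the genes so named, the contrasts with MSC and STING-MSC joints are therefore not separate support.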

How the data were processed

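Joint RNA was enriched with oligo(dT) and sequenced, and the submitters' processing notes and methods name STAR 2.7.3a on GRCm39, HTSeq and DESeq2. The values deposited by the authors are a signal, namely read counts divided by a median-ratio size factor per joint, and the sources used here do not state the strand setting or a filter on low counts. Counts of genes that overlap a measured gene on the opposite strand are therefore uncertain, among them Agpat2, Cebpd, Cxcl10, Eif5b, Elk4, Irak3, Irak4, Prg4 and Slc39a5. Whole reads were recovered for 99.8% to 99.9% of the values, within a tolerance of 0.1 read, and these served edgeR 4.0.16 and DESeq2 1.42.0. The lowest gene mean was 9.40. The main test took log2 of the normalized count plus 1 and fitted limma 3.58.1 in R 4.3.3, trend option on, to the 4 groups of 20 joints; the pseudocount understates changes of low genes, and the FDR was by Benjamini-Hochberg over 14793 genes. Single genes were also tested with an exact two-sided permutation over 10 joints.

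Named genes were those at FDR of at most 0.05, the 10 smallest p in each direction, the 5 largest folds in each direction past the threshold, the smallest p of each list and a panel of 15 genes; other genes were named after their values were seen. Members and lists were chosen with earlier results of these data known. Of 32 lists with 1038 genes, 960 genes were measured, and 0 of 13 mitochondrially encoded genes. The tests were repeated with a pseudocount of 0.5 or 5, on genes whose mean was 20 or more, on the 10 compared joints alone, after quantile normalization, and with edgeR, DESeq2 with and without its Cook's distance cutoff and filtering, the replicate number as a block, and single joints left out. The scripts were tested on simulated counts.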

Additional observations from a re-analysis of the deposited data

Results flagged for a closer look

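In groups of 5 joints, 166 sets of log2 values were examined for 1 joint far from the others, and 7 (4.22%) held one, against about 1 in 20 that chance gives. The value given is the gap of the extreme joint to its nearest neighbour divided by the range of the group. Control replicate 1 was the high joint for Ccr1 (0.813) and Il6ra (0.819), and control replicate 5 was the high joint for Lypd6b (0.826). Control replicate 4 was the low joint for Lcat (0.737) and for the mean of the T and NK cell markers (0.835). Among the TLR3-MSC joints, replicate 5 was the low joint for Krt75 (0.805) and replicate 4 for Ccl2 (0.764).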

How the results depend on the processing

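Of 1033 pairs of a named gene and an alternative, 955 kept direction and side of the unadjusted threshold, 63 lost the call, 1 gained it and 14 changed sign. Of the 38 named genes at an unadjusted p of at most 0.05, 26 kept it under each of the 20 alternatives. At an FDR of at most 0.05, DESeq2 gave 3 genes with its default filters and 3 without them. Adipocyte genes that rose numbered 5 in edgeR, and endothelial markers that fell numbered 6 under quantile normalization and 6 with the replicate block. Prg4 changed sign, to -0.0204 in DESeq2 with and without its filters and to -0.0052 in edgeR. Leaving out 1 joint gave 29 to 107 genes past the threshold (107 without control replicate 1, 29 without control replicate 3, 31 and 30 without TLR3-MSC replicates 3 and 4), 301 to 810 at the unadjusted p (810 without control replicate 1, 301 without TLR3-MSC replicate 4) and 0 to 1 at the FDR (1 without control replicate 1). It gave 2 to 9 neutrophil markers, 3 to 16 adipocyte genes and 2 to 7 IL-1 and IL-36 genes that rose, and 0 to 14 endothelial markers that fell. Log2 fold changes then ran from -1.04 to 0.15 for Col2a1, -0.13 to 0.32 for Cxcl10, -0.43 to 0.0026 for Mmp13, -0.14 to 0.32 for Prg4, -0.95 to 0.0898 for Ptgs2 and -0.60 to 0.73 for Tnfaip6. The cause was not tested.

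After the group mean of each gene was subtracted, same-numbered control and TLR3-MSC joints correlated at -0.33 to 0.18, which gave no sign of pairing by number. A shared cage or batch was not tested. With the replicate block, 39 genes were past the threshold, 26 higher and 13 lower, and 473 were at the unadjusted p. Of the named genes, Krt79, BC048679 and Cma1 lost the unadjusted call under the block. Quantile normalization gave 48 higher and 24 lower genes, and edgeR 26 and 16. Limits are the 5 joints a group, the lack of a fluid-only group and the mixed tissue of each joint. Depth limits mainly genes under about 20 normalized counts, and a minimum mean of 20 left 37 genes past the threshold.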
